A study of Mus musculus with 28 samples.

Results

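The genes that carry synaptic vesicles to the membrane and fuse them there were examined in nuclei of the mouse gut wall: 42 genes chosen by name from the 51912 of the count table. They comprised 15 synaptotagmins, 6 SNARE and complexin genes, 11 genes of vesicle proteins (synapsins, SV2, synaptophysins and Rab3) and 10 genes of the active zone and of vesicle priming. A neurotransmitter vesicle docks at the active zone, a protein scaffold built by bassoon, piccolo, RIM and ERC proteins, and is primed there by Munc13 and CAPS proteins. Fusion is driven by a complex of the SNARE proteins synaptobrevin, syntaxin and SNAP-25, held by complexins and triggered when a synaptotagmin binds calcium. In the gut, the neurons of the myenteric plexus use this machinery to release the transmitters that contract and relax the muscle layers.

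Nuclei came from the longitudinal muscle with the attached myenteric plexus of C57BL/6 mice, either germ-free (GF, raised without microbes) or specific pathogen-free (SPF, with a microbiota), and from either colon or small intestine (SI). All animals of all groups had received AAV9-CaMKII-EGFPKASH, a virus that puts a green fluorescent protein on the nuclear envelope under a CaMKII promoter, by the intravenous route 5 weeks earlier. Fluorescent nuclei were sorted as the neuronal fraction and dark nuclei as the non-neuronal fraction, which gave 8 groups of 4 SPF or 3 GF libraries and 28 libraries of nuclear RNA. The sort therefore follows the virus and its promoter: an enteric neuron that was not transduced, or in which the promoter was silent, falls into the non-neuronal fraction. The labels do not tie libraries to animals and give no age, so a p-value here reflects only how far these libraries scatter, which may be partly technical. Levels are CPM, a gene's counts scaled to the library total, and values of a group are listed in the order of its replicate numbers.

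Library totals ran from 2394481 to 7321875 counts, and a count of 0 allowed a level of up to 0.41 to 1.25 CPM (3 counts), for counting error only. The label of the neuronal fraction was checked against 12 markers of enteric neurons, none of them among the 42 genes. Their summed level was 2939 to 5361 CPM in the 14 neuronal libraries, 466 to 1170.1 CPM in the 7 colonic non-neuronal libraries, and 15.9 to 119 CPM in the SI non-neuronal libraries except SPF replicate 1, which held 462 CPM. The 10 smooth muscle markers moved the other way, at 457 to 1561 CPM in neuronal and 9281 to 20921 CPM in non-neuronal libraries. The 8 markers of epithelium and endocrine cells, which also secrete by exocytosis, summed to 46.9 to 153 CPM in neuronal, 1694 to 12151 CPM in colonic non-neuronal and 149 to 1897 CPM in SI non-neuronal libraries. Neurod1 and Neurog3, which mark endocrine precursors, were at 0 in all neuronal libraries. Both were also at 0 in all GF non-neuronal libraries, and Neurog3 in the SPF SI non-neuronal ones, so these zeros do not set the fractions apart. Markers of glia (6.84 to 57.9 against 39.9 to 310.3 CPM), endothelium (3.30 to 55.2 against 45.2 to 1551), macrophages (3.25 to 43.8 against 14.8 to 214) and fibroblasts (116 to 521 against 993 to 1913) were lower in neuronal than in non-neuronal libraries as ranges, overlapping for glia, endothelium and macrophages. Those of interstitial cells of Cajal were at 299 to 2254 against 286 to 1074.0 CPM. This sum joins markers that moved in opposite ways. In the GF colon the edgeR log2 fold changes of neuronal over non-neuronal nuclei were -7.46 for Ano1 (adjusted p = 2.60e-06) and -7.07 for Gpr20 (adjusted p = 0.00505). Kit (-4.02), Edn3 (-3.32) and Etv1 (0.93) had adjusted p of 0.0917, 0.386 and 0.155. Gpr20 was at 0 in all colonic neuronal libraries. Mitochondrial transcripts made up 0.423% to 6.82% of neuronal and 3.49% to 35.6% of non-neuronal counts. In bulk nuclei such as these, fewer neurons in a fraction and less RNA per neuron cannot be told apart.

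Promoter sequence is shown for 3 members that the results turn on: Syn1 and Syt6, the members with an RE1-like stretch, and Syt10, which differed most between colon and small intestine. RE1 is the element bound by REST, a repressor of neuronal genes. RefSeq windows (GRCm38.p6, 250 bases before to 50 after a gene's start) matched 32 of the 42 members by symbol, with 42 windows in all. Capitals mark the RE1-like stretch and, in Syn1, also the cyclic AMP response element (CRE). The 250 bases before the start are printed from 5′ to 3′ on the gene's strand, for Syn1 from chrX:20920919-20921168 (minus strand), for 1 of the Syt6 windows from chr3:103575876-103576125 (plus strand) and for Syt10 from chr15:89841861-89842110 (minus strand).
Syn1: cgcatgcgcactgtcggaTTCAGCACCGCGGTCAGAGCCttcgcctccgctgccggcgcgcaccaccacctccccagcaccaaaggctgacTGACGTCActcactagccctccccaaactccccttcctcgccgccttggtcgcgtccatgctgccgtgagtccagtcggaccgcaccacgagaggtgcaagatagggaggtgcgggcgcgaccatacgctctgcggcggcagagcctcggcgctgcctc
Syt6: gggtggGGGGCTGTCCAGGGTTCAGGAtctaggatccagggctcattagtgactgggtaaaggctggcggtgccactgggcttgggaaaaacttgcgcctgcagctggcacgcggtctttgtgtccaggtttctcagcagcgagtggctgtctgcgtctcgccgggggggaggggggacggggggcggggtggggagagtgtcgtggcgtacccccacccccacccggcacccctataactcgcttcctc
Syt10: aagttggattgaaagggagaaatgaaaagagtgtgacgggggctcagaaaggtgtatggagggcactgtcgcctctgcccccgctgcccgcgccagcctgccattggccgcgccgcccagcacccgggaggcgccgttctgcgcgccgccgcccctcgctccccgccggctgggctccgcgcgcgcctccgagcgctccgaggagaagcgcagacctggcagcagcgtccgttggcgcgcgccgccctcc

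RE1 was searched on both strands by its consensus, with up to 4 mismatches over the 19 defined letters. It was found in 75 of 32851 windows of all genes (0.228%) and in those of 2 members. The Syn1 stretch had 2 mismatches and began 232 bases before the start, and the Syt6 stretch had 4 mismatches on the opposite strand. The CRE, TGACGTCA without mismatches, stood in 1.79% of all windows and among members only in Syn1, 159 bases before the start. The consensus motif of NRF1, a regulator of genes of respiration, stood in 0.971% of all windows and among members only in Bsn. The printed Syn1 sequence opens with this motif short of its first letter, at the edge of the window. These matches describe letters in a window and nothing was measured on these promoters here.

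Per kilobase of merged exons, Snap25 was the most abundant member in neuronal nuclei, with a mean of 263 CPM per kb over the 14 neuronal libraries. Snap25 encodes the SNARE protein of the plasma membrane that pairs with syntaxin. Pclo, which encodes the active zone scaffold piccolo, followed at 163 CPM per kb, Syn3 (synapsin III, which tethers vesicles) at 112 and Syn1 (synapsin I) at 101. Below these stood Syt6 (a synaptotagmin) at 82.5 CPM per kb, Vamp2 (synaptobrevin 2) at 49.6, Unc13a (the priming factor Munc13-1) at 47.5 and Vamp1 (synaptobrevin 1) at 42.7. The SDs over the neuronal libraries were large, for example 58.7 CPM per kb for Snap25 and 36.3 for Vamp2, so Vamp2, Unc13a, Vamp1 and Syt1 (42.6) did not differ beyond their spread. The order behind Snap25 differed by segment as means: in colonic neuronal nuclei Syn3 stood at 160.5 (SPF) and 145 (GF) CPM per kb and Pclo at 119 and 139, while in SI neuronal nuclei Pclo stood at 188 and 212 and Syn3 at 60.5 and 80.3. At the other end Syt12 (0.64), Synpr (1.33) and Syt16 (2.72 CPM per kb) were lowest.

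**Figure D1:**
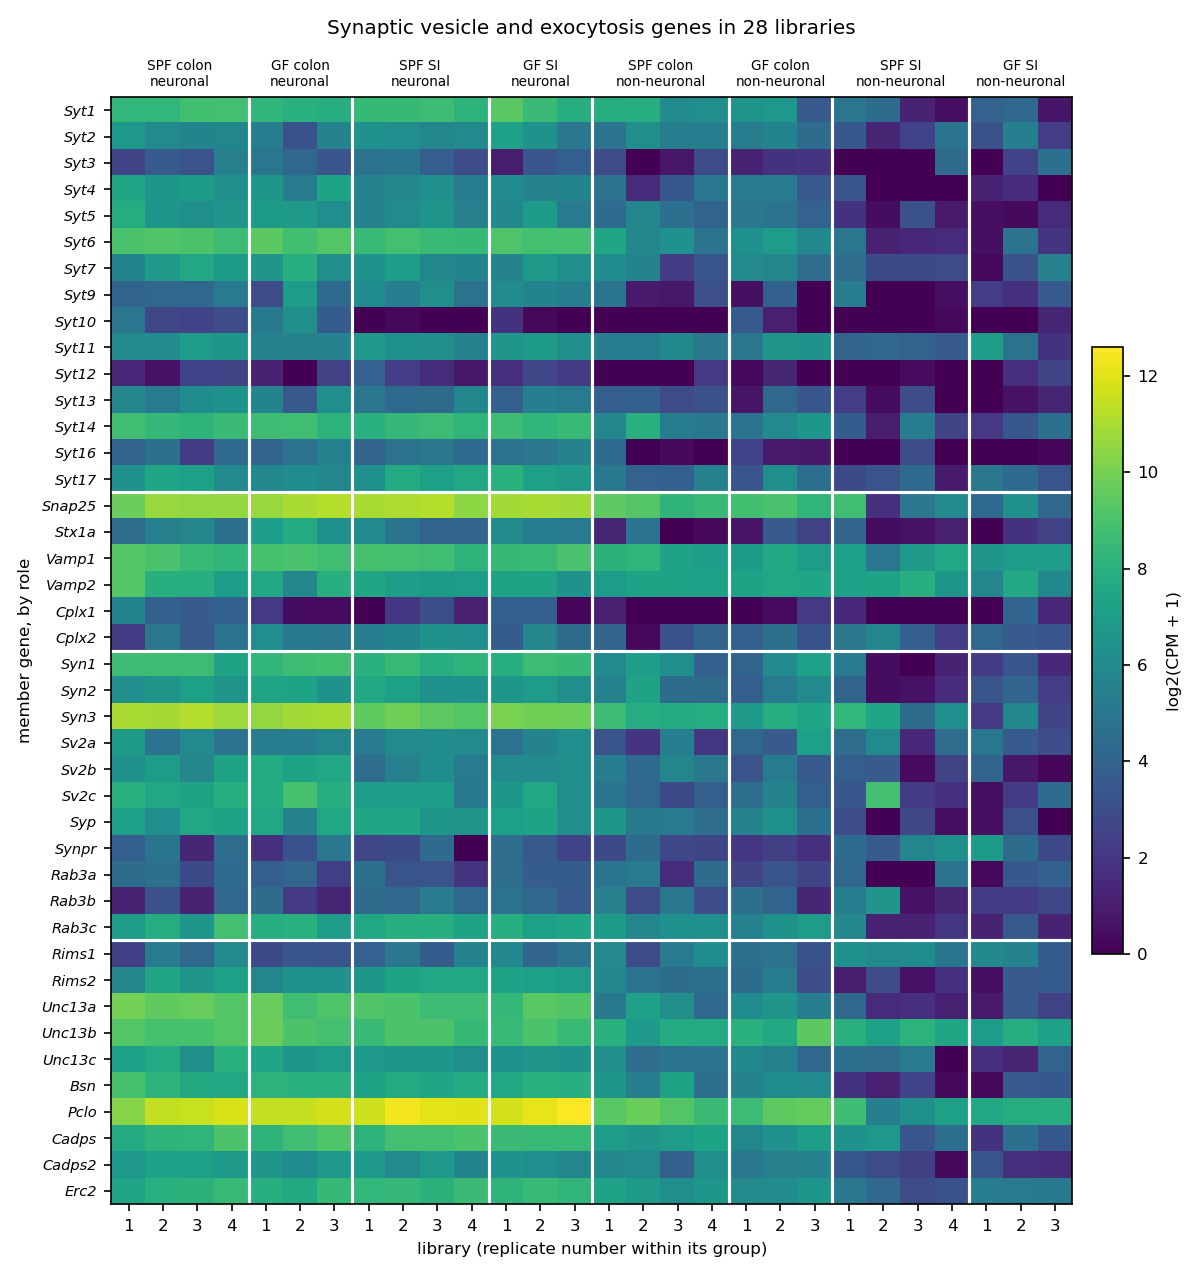
Level of each of the 42 members, as log2(CPM + 1), in each of the 28 libraries. Rows are genes ordered by role (white lines separate synaptotagmins, SNAREs and complexins, vesicle proteins, and active zone and priming genes) and columns are libraries grouped by microbiota, segment and fraction. Snap25, Pclo and Syn3 are bright in all 14 neuronal libraries, and the SI non-neuronal libraries are the darkest.

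The members together were far more abundant in neuronal than in non-neuronal nuclei. Their summed level was 11134 to 14371 CPM in the 14 neuronal libraries, 2471 to 4309 CPM in the colonic and 872 to 2408 CPM in the SI non-neuronal libraries, with SPF replicate 1 the highest of the latter. The highest non-neuronal library thus stood below the lowest neuronal one. For 11 members every neuronal library lay above every non-neuronal one (Syt4, Syt6, Snap25, Syn1, Syn3, Unc13a, Unc13c, Bsn, Pclo, Cadps and Erc2), against 1.57% of the 20964 genes tested. The SI non-neuronal library with the highest member sum was also the one with the highest sum of neuron markers, and the colonic non-neuronal libraries exceeded the other SI ones in both. The part of neurons left in the non-neuronal fraction in these levels was not tested.

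**Figure D2:**
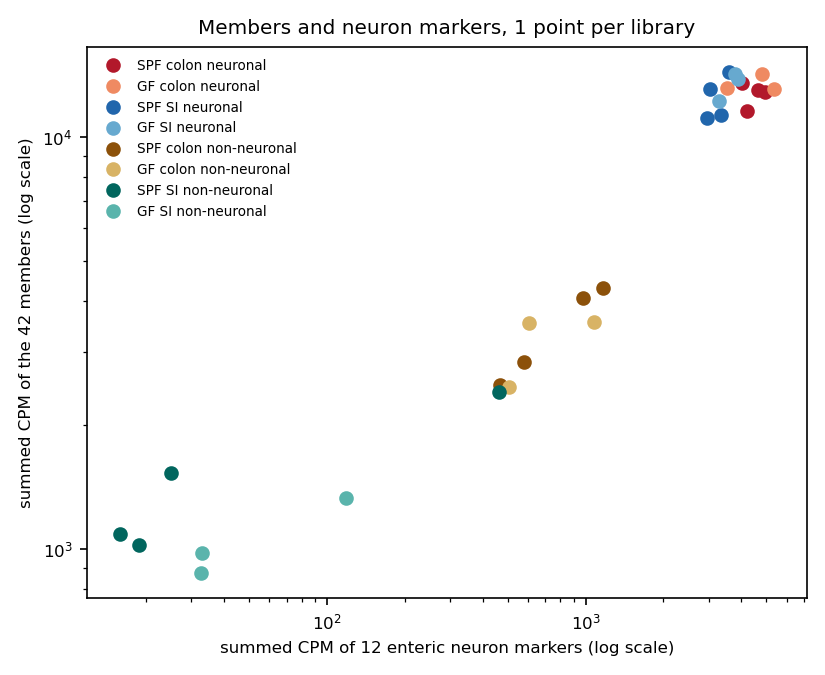
Summed CPM of the 42 members (vertical, log scale) against summed CPM of the 12 enteric neuron markers (horizontal, log scale), 1 point for each of the 28 libraries, coloured by group. The neuronal libraries sit together at 11134 to 14371 CPM of members, and the non-neuronal libraries spread below them, with the SI ones lowest.

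Between fractions, 11 of 42 members were called higher in neuronal nuclei of the SPF colon (adjusted p below 0.05 in edgeR, over all genes, which is what "called" means below where no other tool is named), where 3.27% of all genes were called higher, and none was called lower (7.56% of all genes). In the SPF SI 24 of 42 were called higher (9.09% of all genes), in the GF colon 9 (2.19%) and in the GF SI 23 (5.6%), and again none was called lower in edgeR (5.99%, 4.96% and 5.33% of all genes). In either direction, 10.8%, 15.1%, 7.16% and 10.9% of all genes were called in the SPF colon, SPF SI, GF colon and GF SI. DESeq2 called Synpr lower in both SI comparisons. The members' median log2 fold change was 1.71 in the SPF colon, 2.79 in the SPF SI, 1.99 in the GF colon and 2.93 in the GF SI, beside -0.05, 0.03, -0.07 and 0.02 for all genes tested. Unadjusted p-values under 0.05 were reached by 23, 31, 22 and 29 members in the same order. The share of all genes under that unadjusted cutoff is not given here or below. All neuronal libraries of the pair of groups lay above all non-neuronal ones for 24, 29, 27 and 30 members, against 8.22%, 13.9%, 10.2% and 23.0% of all genes.

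Between microbiota states, 21 members were called in both SI comparisons (87.5% of the SPF and 91.3% of the GF calls), and 5 in both colonic ones (45.45% and 55.56%). The SPF and GF groups share no libraries, but their tests share a fit on all 28 libraries and its estimate of spread. The overlap over all genes tested is not given here, so no result particular to the members can be read from these shares. The genes called in both colonic comparisons, Bsn, Erc2, Pclo, Syn3 and Unc13a, were called in all 4. Of these, Bsn lost its call in 6 of 14 alternatives in the SPF colon and 6 of 12 in the GF colon (adjusted p up to 0.152 and 0.14), Erc2 in 8 of 14 in the SPF colon (up to 0.174) and Unc13a in 2 of 12 in the GF colon (up to 0.0702). The genes Cadps, Syt17, Syt5, Syt6 and Vamp1 were called in 3, while 11 members were called in none by edgeR. The count in the SPF colon fell to between 5 and 7 when non-neuronal replicate 3 or 4 or any one of the 4 neuronal libraries was left out, and that in the GF colon to 4 without non-neuronal replicate 1.

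**Figure D3:**
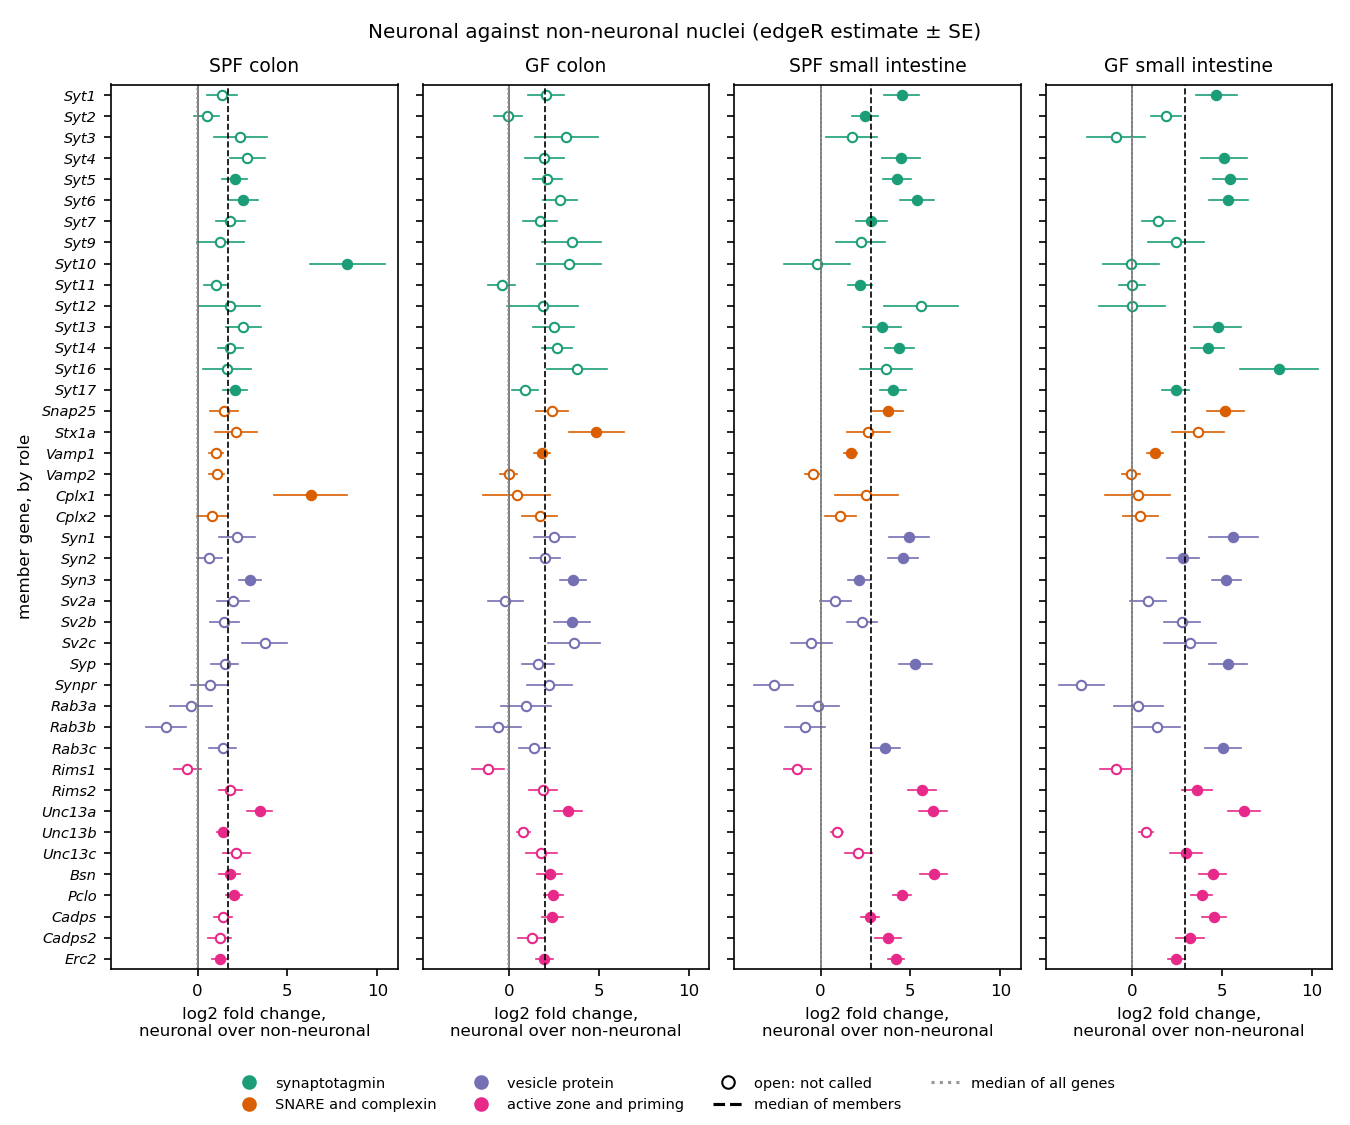
Log2 fold change of neuronal over non-neuronal nuclei with its SE (edgeR) for each of the 42 members in 4 comparisons, coloured by role. Filled points were called at an adjusted p below 0.05, the dashed line is the members' median (1.71, 1.99, 2.79 and 2.93 from left to right) and the dotted line that of all genes tested. Of the 42 points, 39, 36, 35 and 35 lie above 0 in the same order, and all filled points do.

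Several of the synaptotagmins sense calcium. Of the 15, 4 were called higher in neuronal nuclei of the SPF colon, 10 of the SPF SI, 0 of the GF colon in edgeR (6 at an unadjusted p under 0.05) and 8 of the GF SI. Syt6, by length the most abundant of them, stood at 366, 458, 363 and 351 CPM in the SPF SI neuronal libraries and at 30.1, 1.27, 1.67 and 1.81 CPM in the non-neuronal ones. In the GF small intestine it stood at 552, 450.2 and 448 against 0.436, 27.2 and 2.73 CPM. In the colon the neuronal libraries held 525, 569, 533 and 397 (SPF) and 682, 447 and 593 CPM (GF), and the non-neuronal ones 173, 58.5, 82.2 and 26.95 (SPF) and 79.2, 125 and 57.1 CPM (GF). No neuronal library overlapped a non-neuronal one, and the SI non-neuronal libraries were below all colonic ones except SPF replicate 1 and GF replicate 2. Its log2 fold change was 5.35 ± 0.94 (SE, adjusted p = 2.92e-04) in the SPF small intestine, 5.35 ± 1.08 (adjusted p = 0.0016) in the GF small intestine and 2.55 ± 0.81 (adjusted p = 0.0458) in the SPF colon. In the GF colon it was 2.84 ± 0.95 (adjusted p = 0.0712), which missed the threshold. The Syt6 call in the SPF colon was not kept under every alternative.

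Syt1, the calcium sensor of fast release in many neurons, was present at 341, 342, 406 and 285 CPM in SPF and 652, 387 and 231 CPM in GF SI neuronal nuclei, against 29.4, 21.2, 1.39 and 0.451 CPM (SPF) and 14.6, 17.8 and 0.683 CPM (GF) in the non-neuronal ones. Fractions did not overlap there, and the log2 fold changes were 4.51 ± 0.97 (adjusted p = 0.00243) and 4.69 ± 1.13 (adjusted p = 0.00772). In the SPF colon it stood at 322, 324, 436 and 459 CPM in neuronal and 219, 232, 65.5 and 74.3 CPM in non-neuronal libraries, and it was called in neither colonic comparison (1.34 ± 0.85, adjusted p = 0.353 in SPF and 2.06 ± 1.00, adjusted p = 0.221 in GF). Syt5 had a log2 fold change of 5.47 ± 0.95 (adjusted p = 8.51e-05) in the GF small intestine, from 58.8, 116 and 34.2 to 0.436, 0.254 and 1.91 CPM. Within each library, the genes Syt1, Syt2, Syt3, Syt5, Syt6, Syt7, Syt9 and Syt10 were set to a sum of 100%, by CPM per kb: Syt6 then held a mean of 40.5% in neuronal libraries, Syt1 20.97% and Syt5 17.3%.

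Low synaptotagmins gave the largest estimates and the widest errors. Syt16 stood at 26.3, 31.1 and 48.7 CPM in GF SI neuronal libraries and at 0, 0 and 0.137 CPM in the non-neuronal ones, where 1 count was found in all. The log2 fold change was 8.17 ± 2.16 (SE, adjusted p = 0.00928), and the ratio of pooled counts was 597 with a counting interval of 107 to 23631 (95%, exact). Syt10 was at 0 in all 4 non-neuronal libraries of the SPF colon and at 30.2, 5.41, 4.87 and 6.96 CPM in the neuronal ones, so it was at least 10.1-fold higher there, against a floor of 3 counts in the shallowest non-neuronal library. It was called, with a fitted log2 fold change of 8.33 ± 2.08 (adjusted p = 0.00674), and with it at its bound the members' median was still 1.71.

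Among the SNAREs and complexins, 1, 2, 2 and 2 of the 6 genes were called higher in neuronal nuclei, listed here and later in the order SPF colon, SPF SI, GF colon, GF SI. Snap25 stood at 2006, 2131, 2328 and 1407 CPM in the SPF SI neuronal libraries and 1831, 1978 and 1841 CPM in the GF ones. The non-neuronal libraries held 426, 2.22, 30.6 and 64.3 (SPF) and 18.98, 82.9 and 16.9 CPM (GF). All neuronal values were above all non-neuronal ones, and SPF replicate 1 was by far the highest of the SI non-neuronal libraries. The log2 fold changes were 3.78 ± 0.84 (SE, adjusted p = 0.00359) and 5.19 ± 1.03 (adjusted p = 0.00191). In the colon the non-neuronal libraries reached 295 to 703 CPM and the gene was not called (1.46 ± 0.76, adjusted p = 0.242 in SPF and 2.38 ± 0.91, adjusted p = 0.118 in GF). In both it was called without the low-count filter (adjusted p = 6.54e-04 in SPF and 2.00e-07 in GF) and when only the compared groups were fitted (0.00508 and 2.50e-04), and the fractions did not overlap.

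Vamp1 and Vamp2 encode the synaptobrevins, the SNAREs of the vesicle itself. Vamp1 was called in 3 comparisons, with log2 fold changes of 1.68 ± 0.38 (adjusted p = 0.00154) in the SPF SI, 1.84 ± 0.44 (adjusted p = 0.00563) in the GF colon and 1.29 ± 0.43 (adjusted p = 0.0453) in the GF SI. Vamp2 was called in none and stood at 166, 132, 115 and 122 CPM in neuronal and 145, 156, 242 and 101 CPM in non-neuronal SPF SI libraries, which overlapped. Its log2 fold changes were 1.05, -0.42, -0.02 and -0.06 in the same order. Of the sum of both genes per kb, Vamp1 held a mean of 49.8% in neuronal and 28.6% in non-neuronal libraries, with an SD of 12.6 and 11.9 percentage points over 14 libraries each. The Vamp1 call in the GF small intestine was lost in 11 of 12 alternatives, with adjusted p up to 0.199.

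Stx1a, the syntaxin of the plasma membrane, stood at 132, 211 and 80.2 CPM in the GF colonic neuronal libraries and at 0.681, 11.4 and 4.39 CPM in the non-neuronal ones, which did not overlap. The log2 fold change was 4.85 ± 1.52 (SE, adjusted p = 0.0447), and it was lost when any 1 of these 6 libraries was left out (adjusted p up to 0.17). Cplx1 (complexin 1) was called in the SPF colon only, at 51.2, 14.1, 11.3 and 14.2 CPM in neuronal and 1.17, 0, 0 and 0 CPM in non-neuronal libraries. With 3 counts in the lower group, the pooled ratio was 99.5 (counting interval 33.7 to 485), and the fitted log2 fold change was 6.30 ± 2.03 (adjusted p = 0.0376). That call was lost without any 1 of 7 of the 8 libraries (adjusted p up to 0.0988). In the GF colon Cplx1 stood at only 3.45, 0.337 and 0.295 CPM in neuronal nuclei.

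Of the 11 vesicle protein genes, 1, 5, 2 and 5 were called higher in neuronal nuclei in the same order of comparisons. Syn3 was called in all 4. Its neuronal libraries stood at 2030.3, 1879, 2226 and 1749 CPM in the SPF colon, against 393, 224, 205 and 219.6 CPM in non-neuronal ones. In the SPF small intestine the values were 737, 919.8, 704 and 609 against 328, 170.0, 21.2 and 70.2 CPM. The fractions did not overlap in either segment, and the log2 fold changes were 2.89 ± 0.61 (adjusted p = 0.00307) and 2.15 ± 0.60 (adjusted p = 0.0165). In GF animals they were 3.55 ± 0.73 (adjusted p = 0.00349) in the colon and 5.25 ± 0.80 (adjusted p = 8.08e-05) in the small intestine, where the non-neuronal libraries held 3.27, 57.5 and 5.19 CPM. Syn3 shares 1733 bases of exon with Timp3 on the other strand, and the sources used here do not state whether the counting used strand. Timp3, an inhibitor of matrix proteases, had group means of 1004.5 and 1047.7 CPM in SPF and GF colonic neuronal nuclei, 464 and 525 CPM in SI neuronal nuclei, and 192 to 723 CPM in the non-neuronal groups. Reads of these genes may not have been told apart.

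Syn1 stood at 227, 394 and 345 CPM in GF SI neuronal and 3.49, 9.16 and 1.64 CPM in non-neuronal libraries, a log2 fold change of 5.64 ± 1.34 (SE, adjusted p = 0.00751). That call was not kept under every alternative. Syp, which encodes the abundant vesicle membrane protein synaptophysin, stood at 164, 172, 101 and 95.4 CPM against 6.8, 0, 5.57 and 0.451 CPM in the SPF small intestine, without overlap. Its log2 fold change there was 5.27 ± 0.91 (adjusted p = 7.94e-05). Rab3c, a small GTPase of vesicles, was called in both SI comparisons, at 3.60 and 5.08, while Rab3a and Rab3b were called nowhere. Of the 3 Rab3 genes per kb, Rab3c held a mean of 62.9% in neuronal and 26.1% in non-neuronal libraries.

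The SV2 genes encode vesicle glycoproteins and edgeR called them in 1 case, Sv2b in the GF colon. DESeq2 also called Sv2b in both SI comparisons (adjusted p = 0.0372 in SPF and 0.0366 in GF). In the GF colon Sv2b stood at 216, 159 and 189 CPM in neuronal and 8.39, 36.6 and 10.8 CPM in non-neuronal libraries, a log2 fold change of 3.49 ± 1.00 (SE, adjusted p = 0.0258). It was lost without any 1 of 5 of these 6 libraries.

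Sv2c stood at 133, 132, 134 and 33.2 CPM in SPF SI neuronal libraries and at 9.71, 462, 3.62 and 2.48 CPM in the non-neuronal ones, among which replicate 2 was far above all others. The log2 fold change was -0.52 ± 1.13 (adjusted p = 0.815), and without that library it was 4.16 (adjusted p = 3.60e-04). In the other comparisons the fractions of Sv2c did not overlap, and it stood at 261, 186, 159 and 246 CPM in SPF colonic neuronal and 28.1, 16.7, 6 and 12.8 CPM in non-neuronal libraries. Its log2 fold changes were 3.72 ± 1.26 (adjusted p = 0.06) in the SPF colon, 3.62 ± 1.44 (adjusted p = 0.132) in the GF colon and 3.23 ± 1.42 (adjusted p = 0.155) in the GF SI, all of which missed the threshold. In the colon it was called with DESeq2 (adjusted p = 0.00633 in SPF and 0.0325 in GF), without the low-count filter and with only the compared groups fitted.

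The active zone and priming genes had the highest share of calls: 5, 7, 5 and 8 of the 10 were called higher in neuronal nuclei. Unc13a, which encodes the priming factor Munc13-1, stood at 578, 513, 401 and 413 CPM in SPF SI neuronal and 17.8, 1.9, 2.23 and 1.13 CPM in non-neuronal libraries. The GF values were 329, 655 and 572 against 0.873, 10.4 and 4.37 CPM. In the SPF colon they were 996, 737, 805 and 609 against 32.8, 146, 72.8 and 18.9 CPM, and in the GF colon 811, 417 and 554 against 67.8, 94.7 and 40.3 CPM. The fractions never overlapped, and the log2 fold changes were 6.26 ± 0.78 (adjusted p = 2.41e-06) and 6.23 ± 0.90 (adjusted p = 2.86e-05) in the SI and 3.45 ± 0.68 (adjusted p = 0.00116) and 3.25 ± 0.78 (adjusted p = 0.00946) in the colon, SPF first.

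Its relative Unc13b, which encodes Munc13-2, had smaller log2 fold changes. It was called in the SPF colon alone (1.43 ± 0.33, adjusted p = 0.00327), at 620.0, 479, 491 and 588 CPM against 260.3, 108, 215 and 208 CPM, and had log2 fold changes of 0.90, 0.79 and 0.79 elsewhere. Of the 3 Munc13 genes per kb, Unc13a held a mean of 56.5% in neuronal and 14.9% in non-neuronal libraries, and Unc13b 27.0% and 67.6%. Among the RIM scaffold genes, Rims2 held 80.5% of the sum of both in neuronal and 25.8% in non-neuronal libraries. Rims2 stood at 100.4, 156, 189.6 and 189 CPM against 0.971, 6.65, 0.557 and 2.48 CPM in the SPF small intestine (5.66 ± 0.79, adjusted p = 1.64e-06), with no overlap. Rims1 stood at 14.6, 30.6, 12.1 and 46.97 CPM in the neuronal and 78.96, 61.7, 69.9 and 28.7 CPM in the non-neuronal libraries there, which overlapped. Its log2 fold change was below 0 in all 4 comparisons (-0.57, -1.29, -1.17 and -0.91) and was called in none.

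Bsn, which encodes the active zone scaffold bassoon, had the smallest p of the members in the SPF small intestine after Erc2. It stood at 158, 206, 168 and 215 CPM in neuronal and 2.59, 1.27, 4.73 and 0.226 CPM in non-neuronal nuclei there, without overlap, a log2 fold change of 6.29 ± 0.74 (SE, adjusted p = 7.43e-08). In the SPF colon the values were 485, 287, 200.2 and 178 against 101, 40.5, 152 and 24.2 CPM (1.80 ± 0.59, adjusted p = 0.0418). Pclo stood at 3170.5, 5233, 4379 and 4128 CPM against 409, 42.7, 78.8 and 142 CPM in the SPF small intestine and at 2871, 2903 and 3584 CPM against 389.9, 703 and 775 CPM in the GF colon. Its log2 fold changes there were 4.52 ± 0.51 (adjusted p = 7.88e-07) and 2.45 ± 0.53 (adjusted p = 0.00493). Erc2, an ERC scaffold gene, had log2 fold changes of 4.20 ± 0.46 (adjusted p = 1.41e-08) and 2.46 ± 0.49 (adjusted p = 4.85e-04) in the SPF and GF small intestine and 1.23 and 1.97 in the colon. Cadps, which encodes the priming factor CAPS1, was called in 3 comparisons at 2.74 (SPF SI), 2.39 (GF colon) and 4.56 (GF SI). Its call in the GF colon was not kept under every alternative.

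**Figure D4:**
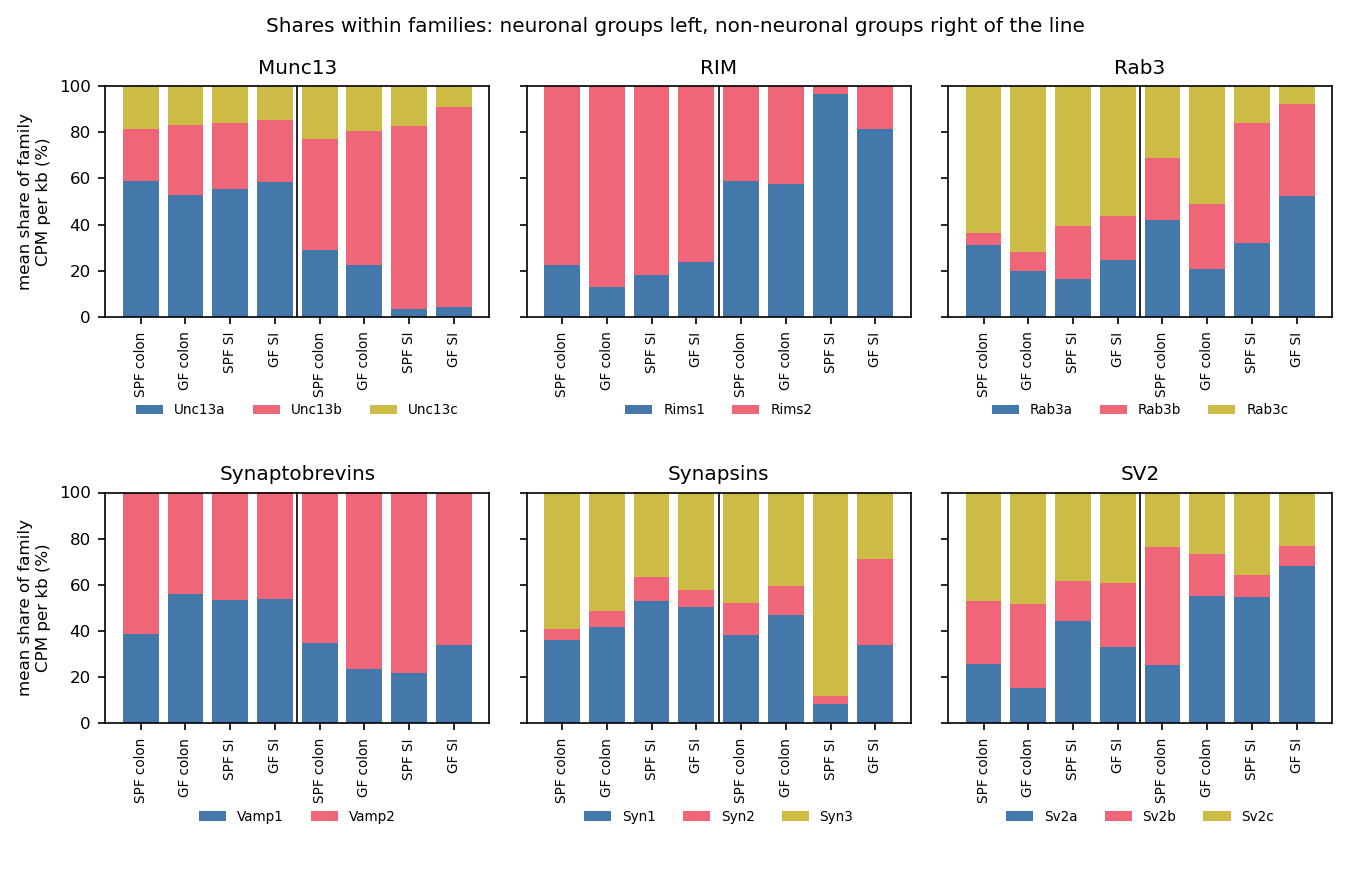
Mean share of each gene in the summed CPM per kb of its family (stacked to 100%) in the 8 groups, neuronal groups left and non-neuronal groups right of the line, for 6 families. Unc13a, Rims2, Rab3c and Vamp1 have larger mean shares in the pooled neuronal libraries (56.5%, 80.5%, 62.9% and 49.8%) than in the non-neuronal ones (14.9%, 25.8%, 26.1% and 28.6%).

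The 11 members that edgeR called in no fraction comparison were Syt3, Syt9, Syt12, Vamp2, Cplx2, Sv2a, Sv2c, Synpr, Rab3a, Rab3b and Rims1. DESeq2 called 3 of them, Sv2c higher in both colonic comparisons, Syt12 higher in the SPF SI and Synpr lower in both SI comparisons. Of these, Synpr (synaptoporin) had log2 fold changes of -2.62 and -2.83 in the SPF and GF small intestine, at 5.52, 6.11, 20.05 and 0 CPM in SPF neuronal and 20.1, 11.4, 52.9 and 78.3 CPM in SPF non-neuronal libraries. The ranges overlapped, since neuronal replicate 3 exceeded non-neuronal replicate 2. Across all members, the non-neuronal mean was a median of 30.8% of the neuronal mean in the SPF colon, 12.8% in the SPF SI, 27.3% in the GF colon and 7.62% in the GF SI. The 12 neuron markers had medians of 19.99%, 2.73%, 15.6% and 1.75%.

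Whether the release machinery differed along the gut was asked by comparing colon with small intestine within each fraction. In neuronal nuclei of SPF mice, 2 of 42 members were called, both higher in the colon (0.653% of 17298 genes were called in either direction, 0.249% higher in the colon). In GF mice none was called in edgeR (0.301% of all genes, 0.133% higher in the colon), 11 had an unadjusted p under 0.05, and DESeq2 called 3 (Syt10, Syn3 and Sv2b). These shares are edgeR's, and DESeq2 called more of all genes, as counted at the end. Averaged over SPF and GF libraries, 4 were called higher and 1 lower in the colon (2.38% of all genes in either direction, 1.1% higher and 1.28% lower). By the libraries themselves, 6 members were higher and 2 lower in SPF colon without overlap (4.17% and 3.3% of all genes), and 7 and 4 in GF colon (5.58% and 9.36%). Other measures moved with the segment in neuronal nuclei. Mitochondrial transcripts made up 0.423% to 1.06% of counts in colonic and 2.75% to 6.82% in SI neuronal libraries. The 5 markers of interstitial cells of Cajal summed to 299 to 504 CPM in the colon and 459 to 2254 CPM in the small intestine, with SPF replicate 1 the highest. Of these markers Ano1, Gpr20 and Edn3 were called lower in the SPF colon (adjusted p = 4.99e-06, 8.30e-05 and 0.0231) and Ano1 and Gpr20 in the GF colon (0.0022 and 0.00559), while none of the 12 neuron markers was called in either. The part of these in the segment differences was not tested.

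Syt10, a synaptotagmin known for the release of insulin-like growth factor from neurons of the olfactory bulb, was present in colonic neuronal nuclei at 30.2, 5.41, 4.87 and 6.96 CPM (SPF) and 32.7, 73.1 and 11.5 CPM (GF). In the SI neuronal nuclei it stood at 0, 0.218, 0 and 0 (SPF) and 2.6, 0.214 and 0 CPM (GF). All 7 colonic libraries were above all 7 SI libraries, most of which held no or single counts. The averaged log2 fold change was 6.17 ± 1.04 (SE, adjusted p = 7.97e-04), that in SPF 6.81 ± 1.45 (adjusted p = 0.0209), and that in GF 5.53 ± 1.44 (adjusted p = 0.115). In SPF the SI group held 1 count in all, and the pooled ratio was 151 with a counting interval of 26.7 to 6019. The SPF call was lost without colonic replicate 1 or any 1 of the 4 SI libraries, and with all 28 libraries in the fit (adjusted p up to 0.132), while the averaged call held in all 20 alternatives.

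Syn3 stood at 2030.3, 1879, 2226 and 1749 CPM in SPF colonic and 737, 919.8, 704 and 609 CPM in SPF SI neuronal nuclei. The GF values were 1499, 1857 and 2003 against 1084, 971 and 905 CPM. Colon and small intestine did not overlap in either state, and the colon was the higher. The log2 fold change was 1.27 ± 0.19 (SE, adjusted p = 3.19e-04) in SPF, 0.89 ± 0.21 (adjusted p = 0.0748) in GF and 1.08 ± 0.14 (adjusted p = 3.58e-05) on average. Both calls were lost when all 28 libraries shared one fit (adjusted p = 0.535 in SPF and 0.326 averaged). Timp3, on the other strand of this locus, was also higher in colonic than in SI neuronal nuclei (1004.5 against 464 CPM in SPF). Its part in the Syn3 counts was not tested.

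Sv2b and Sv2c were also called higher in the colon on average. Sv2b stood at 78.1, 126, 56.1 and 154 CPM (SPF) and 216, 159 and 189 CPM (GF) in colonic, and at 21.3, 44.3, 67.7 and 37.1 (SPF) and 67.2, 66.4 and 72.8 CPM (GF) in SI neuronal nuclei. Sv2c stood at 261, 186, 159 and 246 (SPF) and 215, 492 and 227 CPM (GF) in colonic, and at 133, 132, 134 and 33.2 (SPF) and 101, 181 and 75.5 CPM (GF) in SI neuronal nuclei. Segments did not overlap for Sv2c in either state, and for Sv2b they overlapped in SPF, where colonic replicate 3 lay below SI replicate 3. The averaged log2 fold changes were 1.304 ± 0.30 (SE, adjusted p = 0.0146) for Sv2b and 1.16 ± 0.29 (adjusted p = 0.025) for Sv2c. The Sv2b call was lost without GF SI replicate 2 and with all 28 libraries in the fit (adjusted p up to 0.403). The Sv2c call was lost without GF colonic replicate 2, without GF SI replicate 1 or 3, and with all 28 libraries (adjusted p up to 0.724).

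Pclo moved the other way. It stood at 1287, 2815, 2975 and 3616 CPM (SPF) and 2871, 2903 and 3584 CPM (GF) in colonic and at 3170.5, 5233, 4379 and 4128 (SPF) and 3401, 4700.3 and 6187 CPM (GF) in SI neuronal nuclei, and the segments overlapped in both states. The averaged log2 fold change of colon over small intestine was -0.71 ± 0.19 (SE, adjusted p = 0.037). It was lost in 10 of 20 alternatives, 9 of them the loss of 1 library, with adjusted p up to 0.436. The count of 5 averaged calls fell to 3 without GF SI neuronal replicate 2 or 3.

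**Figure D5:**
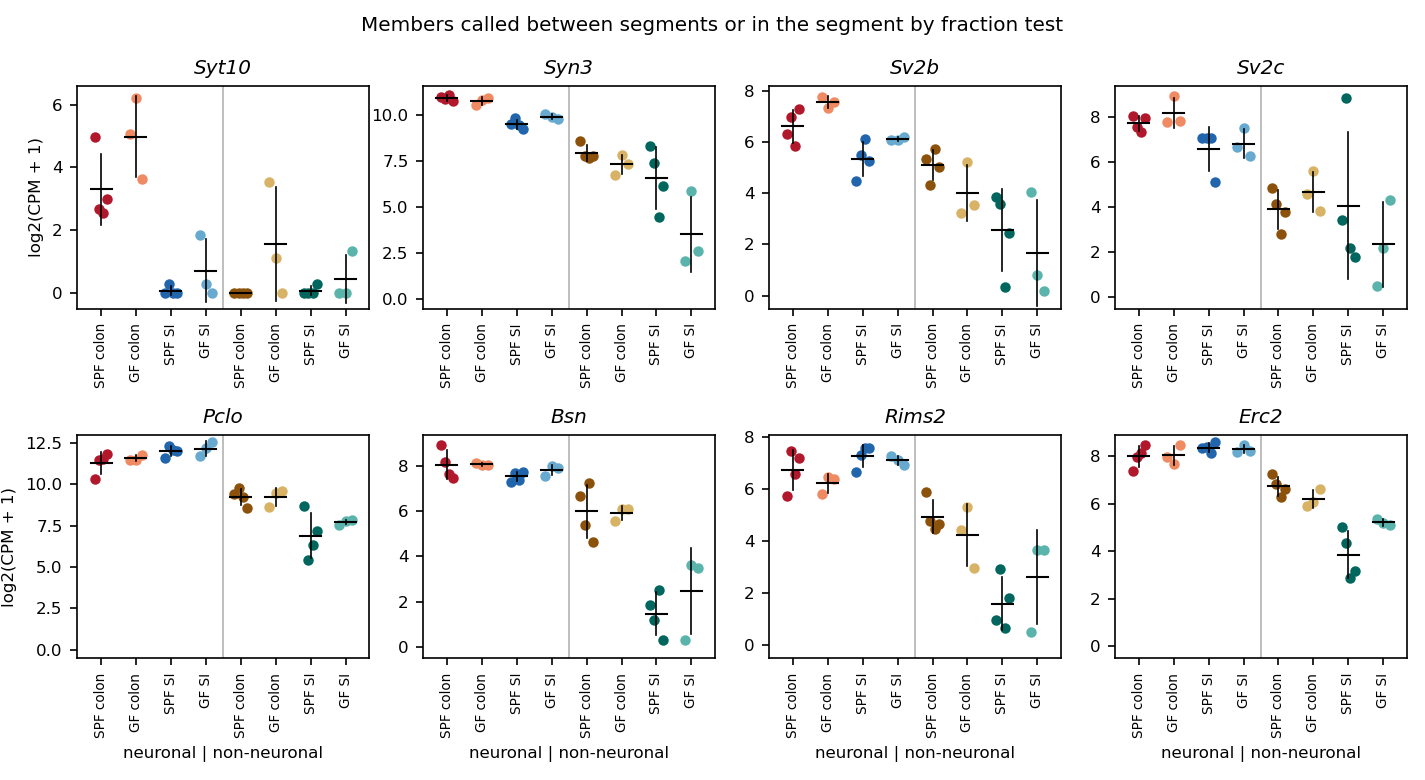
Log2(CPM + 1) of 8 members called between segments or in the test of segment by fraction, 1 point per library, with the group's mean (horizontal bar) and SD of the log values (vertical bar). Neuronal groups are left and non-neuronal groups right of the grey line. Syt10 is above 2 in the 7 colonic neuronal libraries and below 2 in all SI libraries, and Bsn, Rims2 and Erc2 are lowest in SI non-neuronal nuclei.

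In non-neuronal nuclei, 39 of the 42 members passed the low-count filter (Syt10, Syt12 and Cplx1 did not). Of these 1 was called between segments in SPF (1.09% of 18267 genes in either direction, 0.558% higher in the colon) and none in GF by edgeR (0.712%, 0.219% higher in the colon), where 12 had an unadjusted p under 0.05 and DESeq2 called 7. The shares are edgeR's, and DESeq2 called more of all genes, as counted at the end. Bsn was the SPF call, at 101, 40.5, 152 and 24.2 CPM in the colon and 2.59, 1.27, 4.73 and 0.226 CPM in the small intestine, a log2 fold change of 4.78 ± 1.06 (SE, adjusted p = 0.0217). The segments did not overlap. Without SI non-neuronal replicate 1, 10 members were called (Bsn, Erc2, Pclo, Rab3c, Snap25, Syn1, Syn2, Syt4, Syt6 and Unc13a), beside 292 of 18135 genes tested, and none without colonic replicate 1 or 3 or SI replicate 2 or 4. Of the 12 neuron markers, Prph was called higher in the SPF colon (4.74, adjusted p = 0.0129) and none in the GF colon, and their median log2 fold changes were 2.45 and 2.99, beside 1.302 and 0.86 for the members tested. The parts of residual neurons, and of epithelial and endocrine cells, whose markers summed to 1694 to 12151 CPM in colonic and 149 to 1897 CPM in SI non-neuronal nuclei, were not tested.

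In SPF mice the gap between fractions was called smaller in the colon for 3 members. The test was of the difference between the 2 log2 fold changes. Of all genes 0.892% were called, 0.787% with a lower and 0.105% with a higher log2 fold change in the colon. The median difference was -0.35 for all genes tested and -1.25 for the 42 members. A lower value in the colon was thus not particular to these 3. The difference of differences was -4.50 ± 0.87 (SE, adjusted p = 0.00454) for Bsn, -3.85 ± 0.95 (adjusted p = 0.0331) for Rims2 and -2.97 ± 0.58 (adjusted p = 0.00447) for Erc2. The Rims2 call was lost in 9 of 22 alternatives, each leaving out 1 library (adjusted p up to 0.0799), and those of Bsn and Erc2 in none. All 3 are scaffold genes of the active zone. The gap was also smaller in the colon for the 12 neuron markers, as medians. Their non-neuronal mean was a median of 19.99% of the neuronal mean in the SPF colon and 2.73% in the SPF SI. The part of residual neurons in these differences was not tested. For Erc2 the neuronal levels were 165, 250.4, 275 and 353 CPM in the SPF colon and 320.4, 336, 275 and 381 CPM in the small intestine, and the non-neuronal ones 151, 111, 77.3 and 96.5 (colon) and 31.1, 18.99, 6.4 and 7.9 CPM (SI). The neuronal libraries overlapped between segments, while the non-neuronal ones did not. Without SI non-neuronal replicate 1 the count rose to 13 (484 of 20892 genes tested) and without colonic non-neuronal replicate 4 to 5 (186 of 20764). In GF mice edgeR called none (0.21% of all genes, 0.0239% with a larger gap in the colon), 9 had an unadjusted p under 0.05, and DESeq2 called 1 (Synpr). DESeq2 called more of all genes here than edgeR, as counted at the end.

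Whether the microbiota changed these genes was asked by comparing SPF with GF mice within each segment and fraction. No member was called in edgeR in any of the 4 comparisons or in the average over both segments of neuronal nuclei, where edgeR called 0.0% of all genes in 4 of these 5 and 0.00547% in non-neuronal SI nuclei. Unadjusted p-values under 0.05 were reached by 6 members in neuronal colon, 1 in neuronal small intestine, 1 in non-neuronal colon, 4 in non-neuronal small intestine and 3 in the average. Without the share of all genes under that cutoff, no excess of members can be read from these counts. DESeq2 called 1 member in neuronal colon and 1 in non-neuronal small intestine, and none in the other 3. It also called more of all genes than edgeR in each of these comparisons, as counted at the end. The members' median log2 fold changes of SPF over GF were -0.09 in neuronal colon, -0.04 in neuronal small intestine, 0.36 in non-neuronal colon and 0.11 in non-neuronal small intestine, beside 0.02, 0.04, 0.07 and 0.04 for all genes tested.

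The member that DESeq2 called in colonic neurons was Stx1a, at 21.5, 43.9, 51.3 and 23.1 CPM in SPF and 132, 211 and 80.2 CPM in GF libraries, which did not overlap. In edgeR its log2 fold change was -2.15 ± 0.55 (SE, adjusted p = 0.388), and in DESeq2 it was -2.17 (adjusted p = 0.0229). In the small intestine the same gene stood at 65.8, 27.5, 15.5 and 16.5 CPM in SPF and 64.6, 37.7 and 33.7 CPM in GF neuronal libraries, which overlapped. Snap25, its partner, had a log2 fold change of -0.66 ± 0.21 (adjusted p = 0.411) in colonic neurons. The other DESeq2 call was Syn3 in non-neuronal small intestine, at 328, 170.0, 21.2 and 70.2 CPM in SPF and 3.27, 57.5 and 5.19 CPM in GF libraries, which overlapped, with 2.79 ± 0.78 (adjusted p = 0.305) in edgeR. No member was called in the test of whether the segment difference of neuronal nuclei changed with the microbiota (edgeR, 0.0% of all genes, 4 members at an unadjusted p under 0.05, 0 in DESeq2).

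Genes outside the 42 were counted in the same fits, with lists chosen for their role. Of all genes tested, 3.27%, 9.09%, 2.19% and 5.6% were called higher in neuronal nuclei of the SPF colon, SPF SI, GF colon and GF SI. The shares called lower were 7.56%, 5.99%, 4.96% and 5.33%. Of 27 tested genes of 30 other vesicle and active zone genes, 10, 17, 6 and 13 were called higher in neuronal nuclei (again SPF colon, SPF SI, GF colon and GF SI) and 1, 1, 0 and 1 lower. Stxbp5, which encodes the syntaxin-binding protein tomosyn, was the most abundant, at 740 CPM in SPF SI neuronal and 177 CPM in non-neuronal nuclei (log2 fold change 1.91 ± 0.31, adjusted p = 2.25e-05). Of the 14 dense-core vesicle genes, 2, 12, 1 and 8 were called higher and 1, 0, 0 and 0 lower, with Ptprn, a membrane protein of these vesicles, at 1501 against 10.8 CPM in the SPF small intestine (6.93 ± 0.93, adjusted p = 1.96e-05). The 16 endocytosis genes gave 6, 9, 3 and 4 higher and 1, 0, 1 and 0 lower. The 10 tested of 13 vesicle filling genes gave 2, 5, 1 and 3 higher and 1, 0, 1 and 0 lower. Among them Slc18a3, the acetylcholine transporter of vesicles, stood at a mean of 92.3 CPM in GF SI neuronal nuclei, with 1 count in the non-neuronal ones. In the GF colon Slc18a3 was not called between fractions (-1.32 ± 1.21, adjusted p = 0.565). Between GF neuronal nuclei it was called lower in colon than in SI (-4.67 ± 0.82, adjusted p = 0.00468). Slc17a9 had the largest called change of this list in both colonic fraction comparisons. It was lower in neuronal nuclei, at -7.00 ± 1.69 in SPF (adjusted p = 0.00472) and -6.01 ± 1.85 in GF (adjusted p = 0.0393).

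Broadly expressed relatives of the members include SNAP-23 and the synaptobrevins and syntaxins of other membranes. Of 25 tested genes of 26, 0, 2, 0 and 1 were called higher and 2, 0, 1 and 1 lower. With so few genes, no difference from the shares of all genes given above can be read from these counts. The median log2 fold changes of the relatives were 0.18, -0.06, 0.08 and -0.24. Vamp8, an endosomal synaptobrevin, was called lower in neuronal nuclei of the SPF colon and GF small intestine, where all neuronal libraries held 0 counts and the non-neuronal means were 9.57 and 6.79 CPM. Erc1, the widely expressed relative of Erc2, stood at 278 CPM in SPF SI neuronal and 132 CPM in non-neuronal nuclei and was not called (0.90 ± 0.34, adjusted p = 0.0647). Whether the lists differ from the 42 members was not tested.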

How the data were processed

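The table the authors deposited holds expected counts of genes in 28 libraries of sorted nuclei, made with the Ovation kit, 8 PCR cycles and 75 bp single-end reads per the labels' protocols. STAR 2.5.2, RSEM 1.3.0, GRCm38 and DESeq2 1.10.1 are listed, without their roles, per the submitters' processing notes. Expected counts share reads between similar genes by estimate, and 7.478% of values were not whole. They were rounded.

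Symbols came from GENCODE M21, which matched 51719 of 51912 IDs. The other 193 held 0.1022% of counts. Of 165 genes in all lists, 164 were matched (Tprg1l was not). No 2 of the 36 within-group pairs of libraries were identical.

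Tests used edgeR 4.0.16 in R 4.3.3 (TMM factors, edgeR's low-count filter, robust quasi-likelihood test, Benjamini-Hochberg over all genes tested, threshold 0.05), with limma 3.58.1 loaded. Fraction tests and their interactions with segment used all 28 libraries (20964 genes), tests within neuronal nuclei 14 libraries (17298 genes) and within non-neuronal nuclei 14 (18267 genes). A fold against a group at 0 used a floor of 3 counts in a library. On simulated counts for the SPF colon fractions (20179 genes), 2% of genes changed 2-fold, 10% at 4-fold, 34% at 8-fold and 50% at 16-fold were called. Alternatives were DESeq2 1.42.0, relative-log size factors, no filter and a stricter one, other sets of libraries, leaving out each library, and a replicate block. Summaries and figures used Python 3.11.15, SciPy 1.17.1 and matplotlib 3.10.9.

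Named in full were, in each comparison, up to 5 called members with the largest rise and 5 with the largest fall (5 CPM or more on average in the higher group), the 8 most abundant per kb in neuronal nuclei, and those called in no fraction comparison. Of other lists, the called gene with the largest change and the most abundant gene were candidates. Further genes were chosen after their values were seen. The members and lists were chosen with earlier results of these data known.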

Additional observations from a re-analysis of the deposited data

Results flagged for a closer look

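Of the named members, 16 of 68 gene and group combinations with 4 libraries had 1 library standing apart, meaning that its gap to the nearest other library took up more than 0.829 of the group's range. Chance gives about 1 in 20 where values are normal and independent. Levels in CPM need not be normal and the genes share libraries, so no excess over that rate can be read here. In non-neuronal nuclei of the SPF colon, replicate 1 was high for Syn3 (0.9018 of the range, 393 CPM against 205 to 224), Rims2 (0.8501, 57.8 against 21.1 to 26.6) and Syt16 (0.9871, 20.3 against 0 to 0.261). Replicate 2 was high for Stx1a (0.9419, 26.8 against 0 to 1.56). In neuronal nuclei of the SPF colon, replicate 1 was high for Syt10 (0.9172, 30.2 against 4.87 to 6.96), Cplx1 (0.9267, 51.2 against 11.3 to 14.2) and Syt5 (0.8382, 220.2 against 75.4 to 98.8), and low for Snap25 (0.868, 839.8 against 1514 to 1617). Replicate 4 was low for Syn1 (0.945, 153 against 394 to 408).

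In SI non-neuronal nuclei of SPF mice, replicate 1 was high for Unc13a (0.9341, 17.8 against 1.13 to 2.23 CPM), Syt6 (0.9813, 30.1 against 1.27 to 1.81), Syn1 (0.9605, 34.3 against 0 to 1.35) and Snap25 (0.8536, 426 against 2.22 to 64.3). This is the library with 462 CPM of neuron markers. Replicate 2 was high for Sv2c (0.9843, 462 against 2.48 to 9.71). In SI neuronal nuclei of SPF mice, replicate 2 was high for Syt6 (0.8613, 458 against 351 to 366) and replicate 4 low for Sv2c (0.9801, 33.2 against 132 to 134).

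By the tested interaction in SPF mice, the log2 fold change between fractions was smaller in colon than in SI for Rims2 (difference -3.846), Bsn (-4.495) and Erc2 (-2.968). Of all genes, 0.787% were called in this direction.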

How the results depend on the processing

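Fraction calls of members changed most in the colon. In the SPF colon 11 members became 18 with DESeq2 and 20 with only the compared groups fitted. In the GF colon 9 became 15 without the low-count filter and 14 with only the compared groups. The counts over all genes in these settings are not given here, so no change particular to the members can be read from them. With DESeq2, members called were 3 for GF neuronal segment, 11 and 7 for SPF and GF non-neuronal segment, 1 each for microbiota in neuronal colon and non-neuronal small intestine, and 7 and 1 for segment by fraction in SPF and GF. Without the filter, the same comparisons gave 1, 5 and 3, 1 and 1, and 13 and 5. With all 28 libraries in the fit, segment gave 0 (SPF neuronal), 1 (averaged), 11 (SPF non-neuronal) and 5 (GF non-neuronal), and with only the compared groups, segment by fraction in GF gave 1. The cause was not tested.

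Leaving out 1 library gave 5 to 12 calls in the SPF colon fractions, 22 to 27 in the SPF and 19 to 21 in the GF small intestine, and 4 to 8 in the GF colon. For segment it gave 1 to 2 (SPF neuronal), 0 (GF neuronal), 3 to 6 (averaged), 0 to 10 (SPF non-neuronal) and 0 to 2 (GF non-neuronal). For segment by fraction it gave 2 to 13 (SPF) and 0 to 2 (GF), for microbiota 0 to 1 in non-neuronal small intestine and 0 elsewhere, and 0 for segment by microbiota. The GF segment count rose to 2 and 1 without SI non-neuronal replicate 2 and 3, and the GF segment by fraction count to 2 without the former. Sv2c in the SPF SI fractions went from -0.52 to 4.16 without non-neuronal replicate 2 (range when leaving out 1 library -0.99 to 4.16), and Syt11 in the GF SI fractions from -0.00 to 2.59 without non-neuronal replicate 1 (range -0.56 to 2.59). Of 1080 values of called members under alternatives, 938 were still past the threshold, 142 were not, and 0 changed sign.

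The labels do not say that replicate numbers mark a shared animal or batch, and the libraries were not treated as pairs: correlations of deviations between same-numbered libraries were -0.0685 to 0.0788. As a hint from the data, not the design, libraries correlated best with their own number in 4 of 4 (SPF colon), 3 of 4 (SPF SI), 0 of 3 (GF colon) and 3 of 3 (GF SI) fraction pairs, so pairing is unresolved. With the replicate block the fraction counts were 10, 25, 10 and 22 (SPF colon, SPF SI, GF colon, GF SI), and the non-neuronal segment counts 5 (SPF) and 1 (GF).

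Counts over all genes moved by more than 1.5 times with DESeq2: GF fractions from 1500 to 2956 (colon) and 2291 to 3742 (SI), segment from 113 to 429 and 52 to 355 (SPF and GF neuronal), 199 to 1083 and 130 to 543 (non-neuronal) and 412 to 935 (averaged), and segment by fraction from 187 to 810 and 44 to 509. Microbiota went from 0 to 138 (neuronal colon), 10 (neuronal SI), 5 (non-neuronal colon) and 27 (average), and from 1 to 374 (non-neuronal SI), and segment by microbiota from 0 to 24. Without the filter the segment counts were 298, 173, 579, 303 and 682 in the same order, those for segment by fraction 630 and 296, and microbiota 80, 1, 34 and 161 (neuronal colon, neuronal SI, average, non-neuronal SI), with 22 for segment by microbiota. With all 28 libraries, segment gave 33 (GF neuronal), 811 and 309 (non-neuronal) and 251 (averaged), and microbiota in non-neuronal SI 34. With the block segment gave 317 and 207 (non-neuronal) and microbiota 2 (neuronal colon), 1 (average) and 0 (non-neuronal SI), and with only the compared groups segment by fraction in GF gave 105. Relative-log size factors moved the median of all genes from 0.03 to -0.08 in the SPF SI fractions and from -0.07 to -0.18 in the GF colon. Depth limited the low members: Syt10 was under the 3-count floor in 6 of 14 neuronal libraries, Cplx1 in 4, Syt12 in 2 and Synpr in 1.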
